A study of Mus musculus with 6 samples.

Results

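The V1R receptors numbered 186 and above are genes whose GENCODE symbol on the GRCm38 build is Vmn1r plus a number of 186 or higher. Membership was set by that number alone and not by any measured value. The choice to describe these receptors was made with earlier results of these data known. The table of 38561 genes held 40 of them, beside 125 V1R genes with lower numbers. Of the 40, 25 lie on chromosome 13 (Vmn1r188 to Vmn1r223) and 13 on chromosome 17 (Vmn1r224 to Vmn1r237). Vmn1r186 is on a scaffold that is not part of an assembled chromosome and Vmn1r238 on chromosome 18. All 40 are annotated as protein-coding.

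V1R genes encode G protein-coupled receptors of the vomeronasal organ, the sensory structure at the base of the nose that detects pheromones and other social cues. A mature V1R neuron expresses mainly a single receptor gene, sits in the apical layer of the epithelium and signals through the G protein subunit encoded by Gnai2, while V2R neurons lie in the basal layer and use Gnao1. Small volatile compounds and steroid derivatives are known V1R ligands, and the genes sit in clusters of recent duplicates, so neighbouring receptors are often close in sequence.

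Dissected vomeronasal organs came from males of the outbred CD-1 stock, and RNA was recovered from them by immunoprecipitation of ribosomal protein S6 in its phosphorylated form, a modification that increases in recently active neurons. There were 3 libraries after exposure to pups and 3 after a control exposure, which the labels do not describe further; no genotype, age or exposure time is given, and both groups share sex, stock and tissue. Nothing in the labels tells whether libraries came from different animals, and p-values then measure the spread between these libraries alone, which may be technical. No library of RNA before precipitation was analysed here, and in such bulk samples fewer cells of a type and less RNA per cell cannot be told apart. The control libraries held 10590716 to 11240065 counts and the pup libraries 18199476 to 20871266, so depth was separated by group. Of 11 listed markers of vomeronasal sensory neurons 10 were matched to a row, and Trpc2 was not. Omp, a marker of mature olfactory and vomeronasal neurons, had counts in every library. Its level was 864 ± 84.3 CPM in control libraries and 758 ± 86.0 CPM in pup libraries (SD, n = 3 each). CPM here stands for counts as a rate of the library total scaled by edgeR's TMM factors.

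The sequences set how well reads can be told apart, and the clusters differed in this. Among the 25 chromosome 13 coding sequences the 300 pairs had a median identity of 67.3% and a highest of 93.55%, for Vmn1r188 and Vmn1r222. Among the 13 chromosome 17 genes the 78 pairs had a median of 62.3% and a highest of 81.0%, for Vmn1r225 and Vmn1r226. Pairs between the clusters had a median of 57.2%. Each coding sequence was also cut into overlapping words of 50 bases, which were looked up in the transcripts of every other gene on either strand. On chromosome 13 the median share of words found elsewhere was 16.0%, 17 of 25 genes had over 10%, and the highest, Vmn1r208, had 82.9%. On chromosome 17, 12 of 13 genes had none and the highest, Vmn1r232, had 0.695%. Counts of chromosome 13 receptors are therefore uncertain wherever reads from such stretches were split or dropped, because how the authors treated reads with several matches is not given in the sources used here.

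Stretches of 3 of the receptors and of their closest relatives are shown. Vmn1r221 and Vmn1r197 had the smallest edgeR unadjusted p among the receptors higher and lower after pup exposure. Vmn1r226 had the highest level per kilobase of coding sequence. None of the 3 passed adjustment in the main edgeR fit described further on. Vmn1r221 is 91.2% identical to Vmn1r209 over the coding sequence and shares with it an unbroken run of 94 bases, from coding base 542 to 635. Coding bases 501 to 650 are given in the direction of translation for Vmn1r221 (chr13:23217873-23218022, GRCm38, plus strand), Vmn1r209 (chr13:22805869-22806018, minus strand) and Vmn1r219 (chr13:23163143-23163292, plus strand). Capitals mark the bases that differ from Vmn1r221, 8 in Vmn1r209 and 10 in Vmn1r219.
Vmn1r221: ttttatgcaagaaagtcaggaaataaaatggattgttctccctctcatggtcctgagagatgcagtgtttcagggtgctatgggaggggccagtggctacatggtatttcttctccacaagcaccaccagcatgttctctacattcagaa
Vmn1r209: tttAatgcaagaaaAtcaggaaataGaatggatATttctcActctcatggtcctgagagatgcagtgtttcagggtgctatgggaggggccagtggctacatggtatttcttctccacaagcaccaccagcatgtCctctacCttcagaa
Vmn1r219: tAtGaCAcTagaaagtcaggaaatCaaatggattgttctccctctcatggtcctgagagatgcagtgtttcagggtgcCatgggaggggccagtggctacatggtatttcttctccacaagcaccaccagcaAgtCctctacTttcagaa

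For Vmn1r197 the closest receptor was Vmn1r211, at 91.5% identity, and their first 104 coding bases were the same. Coding bases 1 to 150 are given for Vmn1r197 (chr13:22327911-22328060, GRCm38, plus strand) and Vmn1r211 (chr13:22852346-22852495, minus strand), with the 5 bases that differ from Vmn1r197 in capitals.
Vmn1r197: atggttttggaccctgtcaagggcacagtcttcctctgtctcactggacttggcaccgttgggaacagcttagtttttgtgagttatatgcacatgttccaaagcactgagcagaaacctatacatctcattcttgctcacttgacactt
Vmn1r211: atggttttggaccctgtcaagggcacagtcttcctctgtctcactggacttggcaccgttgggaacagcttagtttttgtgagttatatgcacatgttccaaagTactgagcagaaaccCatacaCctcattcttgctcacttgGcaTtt

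The closest pair on chromosome 17 shared no run longer than 27 bases. Coding bases 501 to 650 are given for Vmn1r226 (chr17:20688008-20688157, GRCm38, plus strand) and Vmn1r225 (chr17:20502799-20502948, plus strand), with the 26 bases that differ from Vmn1r226 in capitals. A coding read of 50 bases fits only 1 of this pair, whereas the chromosome 13 pairs hold stretches where it fits both.
Vmn1r226: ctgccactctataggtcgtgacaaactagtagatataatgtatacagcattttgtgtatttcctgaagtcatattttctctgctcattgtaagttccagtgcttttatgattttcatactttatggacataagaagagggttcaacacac
Vmn1r225: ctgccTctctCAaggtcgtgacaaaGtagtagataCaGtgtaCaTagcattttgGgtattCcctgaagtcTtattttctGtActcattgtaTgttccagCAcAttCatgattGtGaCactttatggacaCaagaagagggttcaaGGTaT

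**Figure D1:**
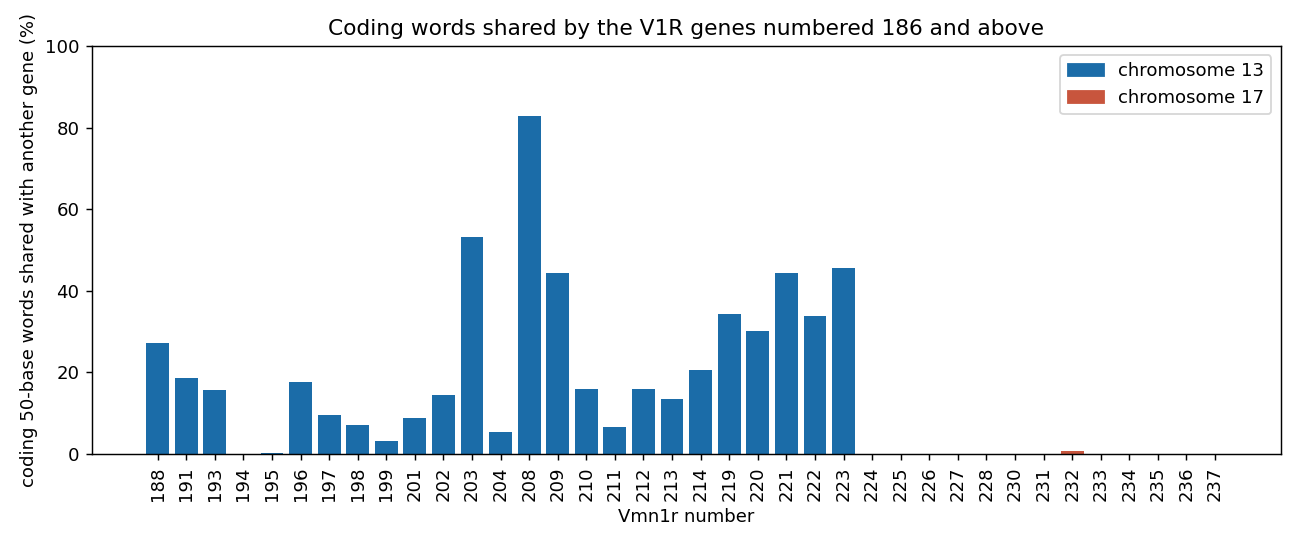
Share of the 50-base words of each coding sequence (vertical axis, percent) that also occur in a transcript of another gene, for the receptors on chromosomes 13 and 17 in order of their number. The chromosome 13 genes reach 82.9% (Vmn1r208), while the chromosome 17 genes stay at or below 0.695%.

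Of the 40 receptors, 37 had at least 1 count and 27 had a count in each of the 6 libraries. Vmn1r186, Vmn1r227 and Vmn1r238 had 0 counts in all libraries, which allows a level of up to 0.0326 CPM at 3 counts of the 91920418 counts in all; this limit covers counting error only. For Vmn1r238 the closest receptor was Vmn1r79, at 98.9% identity, and 71.9% of its words occurred in other transcripts; whether this bears on its count of 0 was not tested. Vmn1r227 had no coding word in another transcript, while 3.53% of the words of its longest transcript occurred in one. The filter on low counts left 31 receptors for testing. Of these, 17 passed it in every library, 7 in all control libraries but not all pup libraries, 5 in all pup libraries but not all control libraries, and 2 in neither group as a whole. The 5 that passed through the pup libraries were Vmn1r199, Vmn1r202, Vmn1r219, Vmn1r221 and Vmn1r237.

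Counts were concentrated in few receptors, and 7 of the 40 held 50% of all counts of the group. Per kilobase of coding sequence, averaged over the 6 libraries, the highest levels were those of Vmn1r226 at 25.6, Vmn1r198 at 16.7, Vmn1r232 at 15.6, Vmn1r228 at 13.3, Vmn1r224 at 11.6 and Vmn1r197 at 10.1 CPM per kilobase. These values divide the counts of the whole gene by its coding length alone, so counts on untranslated exons add to them. Per kilobase of all annotated exons the order changed, since GENCODE M21 gives these genes long untranslated exons of very unequal length. On that scale Vmn1r232 led at 8.92, followed by Vmn1r226 at 3.77, Vmn1r228 at 3.51, Vmn1r231 at 2.56, Vmn1r214 at 2.44 and Vmn1r198 at 2.41 CPM per kilobase. Vmn1r226, Vmn1r232, Vmn1r228 and Vmn1r198 were among the first 6 on both scales, and 3 of these 4 lie on chromosome 17.

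**Figure D2:**
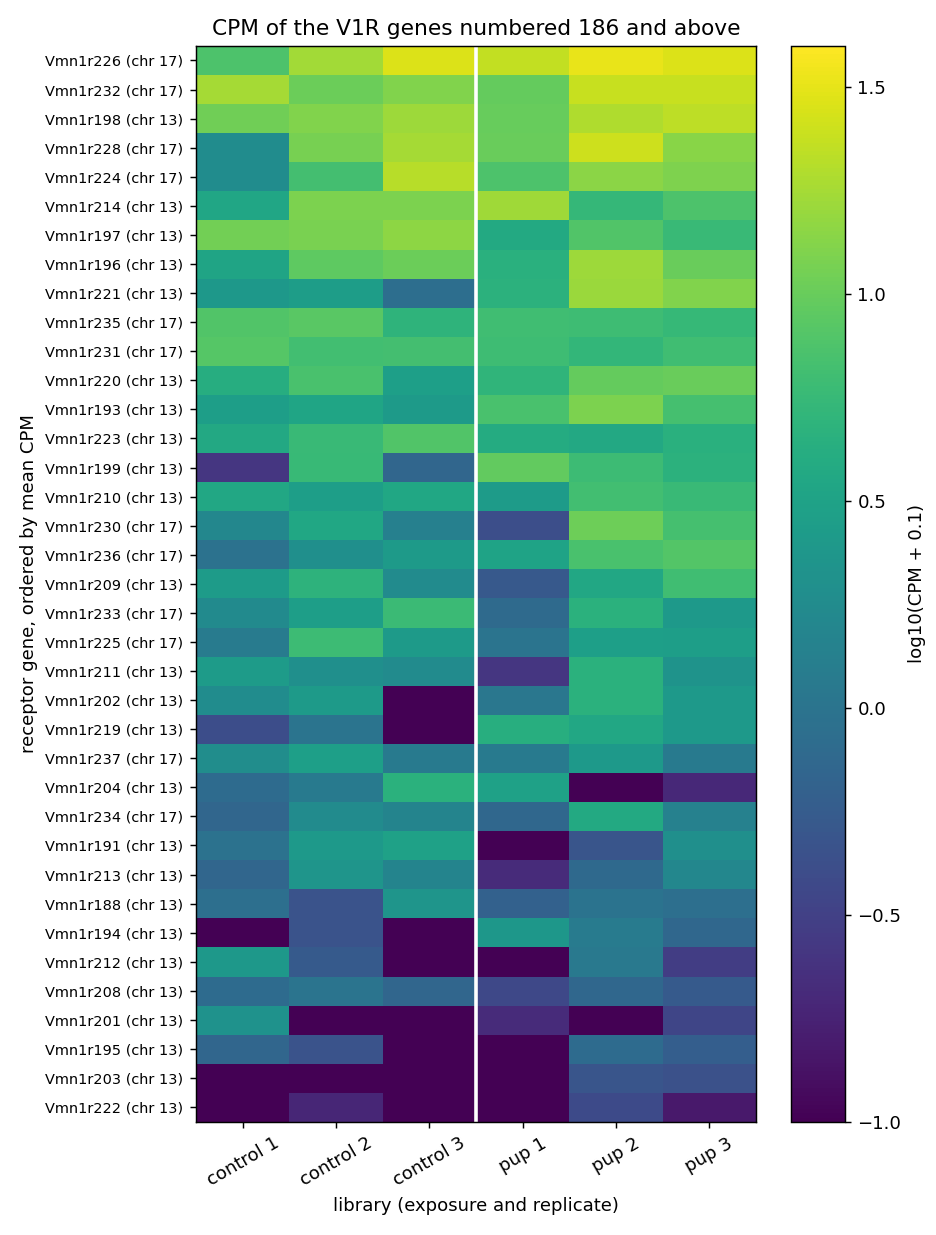
Level of each receptor with at least 1 count (rows, ordered by mean CPM) in the 6 libraries (columns), as log10 of CPM plus 0.1, with the white line dividing control from pup exposure libraries. Vmn1r226 is at the top, Vmn1r221 is darker in the 3 control columns, and Vmn1r197 is brighter there.

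Together the 40 receptors held 1443, 1895 and 1229 counts in the control libraries and 2767, 7450 and 4486 in the pup libraries. As a share of all counts this was 0.0141% ± 0.00331 in the control group and 0.0244% ± 0.0110 in the pup group (SD, n = 3 each), and the groups overlapped. Pup exposure replicate 2 was highest, at 0.0365%, and control exposure replicate 3 lowest, at 0.0116%. With the 50 most abundant genes left out of the total, the shares were 0.0258%, 0.0398% and 0.0401% after control and 0.0346%, 0.0639% and 0.0527% after pup exposure. Pup exposure replicate 2 was again highest, but control exposure replicate 3 was then the highest control library, and the groups still overlapped. Among the counts of all V1R genes the receptors held 17.7%, 20.2% and 24.7% in the control libraries and 18.8%, 22.7% and 23.9% in the pup libraries. These shares spanned nearly the same range in both groups, with means of 20.9% ± 3.54 and 21.8% ± 2.62 (SD, n = 3 each).

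The comparison of pup with control exposure asks which of these receptors had more or less RNA in the precipitate when males had met pups. With edgeR's quasi-likelihood test and Benjamini-Hochberg adjustment over all genes tested, 0 of 31 receptors passed a threshold of 0.05 in either direction, as did 0 of 15498 genes (0% of genes in each direction). At an unadjusted p under 0.05, 4 receptors were higher after pup exposure (Vmn1r221, Vmn1r193, Vmn1r219 and Vmn1r236), where 6.31% of all genes tested were higher. At the same limit 1 receptor was lower (Vmn1r197), where 4.67% of all genes were. Among the 31 tested receptors the same 4 were those whose pup libraries all lay above all control libraries, as 10.1% of all genes tested did, and Vmn1r197 and Vmn1r231 were those with all pup libraries below, as 9.6% of all genes tested did. DESeq2 called 1 receptor, Vmn1r221, higher at an adjusted p under 0.05, where it called 0.406% of genes higher and 0.626% lower. EdgeR without the filter on low counts also called Vmn1r221 alone, where it called 0.255% of genes higher and 0.247% lower. In that fit 7 receptors were higher at an unadjusted p under 0.05 and 0 were lower, against 5.88% and 4.1% of genes. With libraries scaled to their V1R counts, 2 receptors (Vmn1r219 and Vmn1r221) were higher at that limit and 1 (Vmn1r197) was lower, against 1.56% and 9.81% of genes. Without pup exposure replicate 2 only Vmn1r221 remained at an edgeR unadjusted p under 0.05 among those higher. Vmn1r236 was also no longer under that limit without control exposure replicate 1, control exposure replicate 2 or pup exposure replicate 3, and Vmn1r197 was no longer under it without control exposure replicate 2, control exposure replicate 3 or pup exposure replicate 1 or 3.

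The log2 fold changes (pup over control exposure) of the 31 tested receptors ran from -1.45 (Vmn1r191) to 2.97 (Vmn1r219), 19 positive and 12 negative, with a median of 0.24 against 0.03 over all genes tested; with libraries scaled to their V1R counts 14 of 31 were positive. The share of positive values over all genes was 51.5%, and 35.7% under the V1R scaling. The 19 receptors tested on chromosome 13 had a median of 0.17 and the 12 on chromosome 17 a median of 0.37. The 63 tested V1R genes with lower numbers had a median of 0.25 and the 97 tested V2R genes one of 0.23. Neither the difference from the other V1R genes nor that between the clusters was tested. In the other fits the distance to the other V1R genes was larger in part, with medians of 0.33 and 0.12 in limma-voom, 0.28 and 0.083 with the replicate block, and 0.67 and 0.41 without pup exposure replicate 1.

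**Figure D3:**
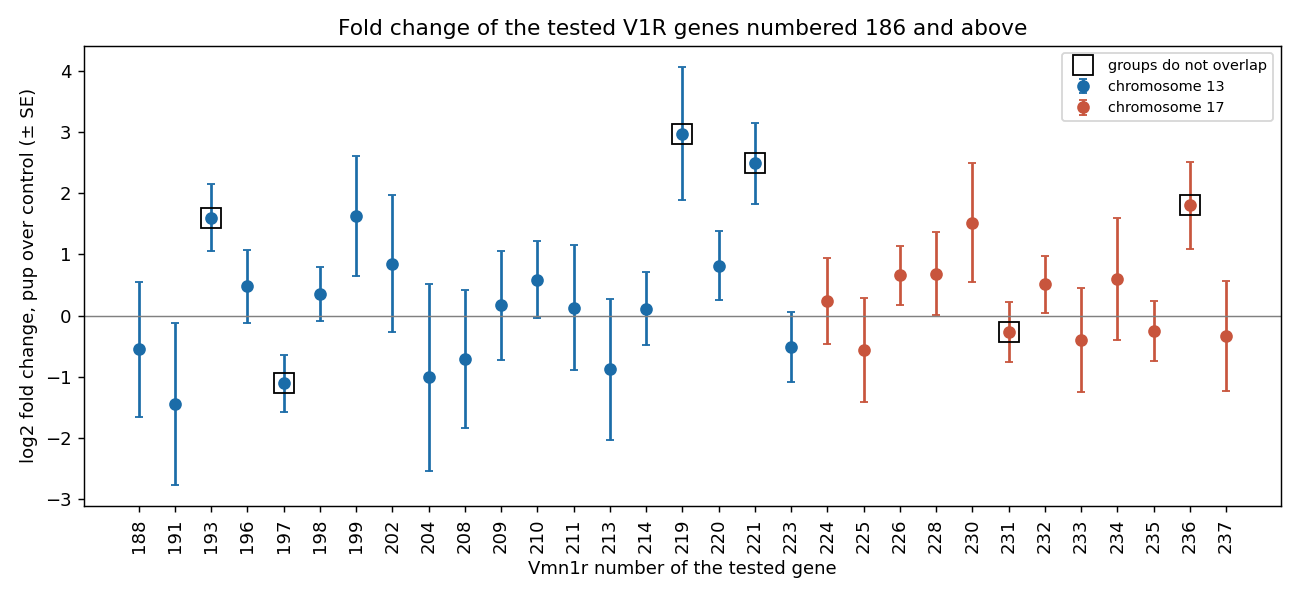
Log2 fold change of pup over control exposure (vertical axis; points are edgeR estimates, bars ± 1 SE) for the 31 tested receptors in order of their number, coloured by chromosome. Squares mark the 6 receptors whose groups of 3 libraries did not overlap, 4 above zero and 2 below.

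Vmn1r221 (ENSMUSG00000082316, chromosome 13 from 23214127 to 23222913, plus strand) was at 2.35, 2.69 and 0.78 CPM in the control libraries and at 4.60, 16.1 and 12.6 CPM in the pup libraries. Every pup library lay above every control library, with pup exposure replicate 1 closest to them. Its mean was 1.94 ± 1.02 CPM after control and 11.1 ± 5.88 CPM after pup exposure (SD, n = 3 each), a fold of 5.73. By edgeR's quasi-likelihood test its log2 fold change was 2.49 (SE 0.66), and the p adjusted by Benjamini-Hochberg over all genes was 0.395. DESeq2 gave a log2 fold change of 2.45 with an adjusted p of 0.0311, and edgeR without the filter on low counts one of 2.52 with 0.0399. Over 16 alternative settings the adjusted p ran from 0.0311 to 0.831, and the log2 fold change from 2.05 to 2.85. Among all V1R counts the share of Vmn1r221 was 0.263% ± 0.143 after control and 1.11% ± 0.454 after pup exposure (SD, n = 3 each), again without overlap.

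The relatives of Vmn1r221 did not all have its pattern. Vmn1r209, whose stretch is printed above and which differs there at 8 of 150 bases, was at 2.58, 4.74 and 1.72 CPM after control and 0.428, 3.54 and 6.27 CPM after pup exposure, with overlapping groups and a log2 fold change of 0.17 (SE 0.89). There were 0.909, 0.566 and 0.455 counts of Vmn1r221 per count of Vmn1r209 in the control libraries and 10.8, 4.54 and 2.02 in the pup libraries. This ratio does not depend on how libraries are scaled, and it separated the groups; the pair was picked after the values were seen, so the ratio is a description. Of the coding words of Vmn1r221, 44.4% occur in transcripts of other genes, most often in Vmn1r189 (17.7%), a receptor not analysed here. Of those of Vmn1r209, 44.3% do, most often in Vmn1r206 (29.3%), which was not analysed here either. Over the longest transcript the shares were 20.8% for Vmn1r221 and 29.5% for Vmn1r209. Reads from such stretches make both counts uncertain.

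Vmn1r219 (ENSMUSG00000061376), 88.9% identical to Vmn1r221, had 4, 10 and 0 counts after control and 77, 100 and 50 after pup exposure. In CPM these were 0.313, 0.895 and 0, and 4.12, 3.54 and 2.47, so the groups did not overlap. The log2 fold change was 2.97 (SE 1.09), with an edgeR adjusted p of 0.424, in a gene that passed the filter through its pup libraries. Counts of Vmn1r221 per count of Vmn1r219 were 7.5 and 3 in control exposure replicates 1 and 2. In the pup libraries they were 1.12, 4.54 and 5.12, so the groups overlapped. Vmn1r220, which lies between Vmn1r219 and Vmn1r221 on the opposite strand and shares a run of 163 bases with Vmn1r219, had overlapping groups. It was at 4.07, 6.98 and 2.81 CPM after control and 4.98, 9.58 and 9.97 CPM after pup exposure, a log2 fold change of 0.82 (SE 0.56). Counts of Vmn1r221 per count of Vmn1r220 were 0.577, 0.385 and 0.278 after control and 0.925, 1.68 and 1.27 after pup exposure, without overlap. This pair, too, was picked after the values were seen. Next to Vmn1r221 on its other side, Vmn1r222 had 0, 1 and 0 counts and then 0, 8 and 1. Vmn1r223, the last gene of the cluster, was at 3.60, 5.64 and 7.80 CPM after control and 3.91, 3.64 and 4.34 CPM after pup exposure, a log2 fold change of -0.51 (SE 0.57).

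**Figure D4:**
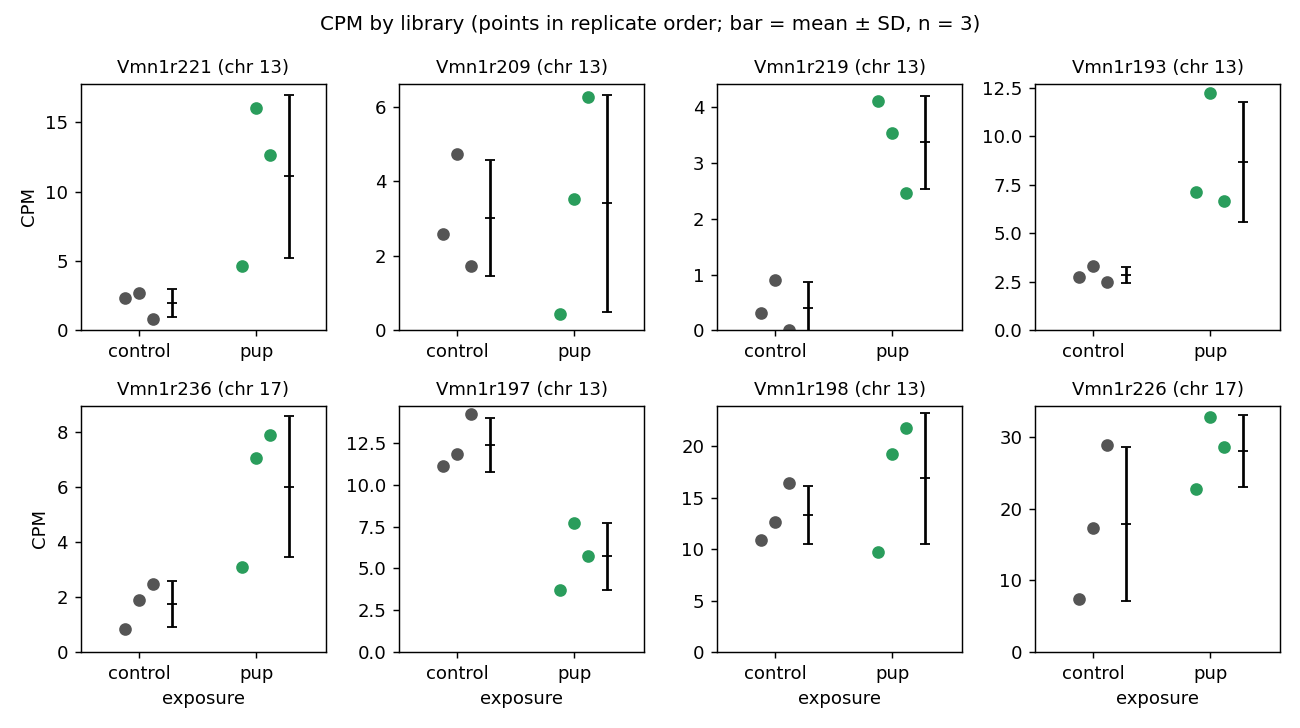
CPM in each library (points, in replicate order) with the mean and SD of 3 libraries beside them, for 8 receptors under control and pup exposure; each panel has its own vertical axis starting at 0. The pup points of Vmn1r221, Vmn1r219, Vmn1r193 and Vmn1r236 all lie above the control points, those of Vmn1r197 all lie below, and those of Vmn1r209, Vmn1r198 and Vmn1r226 overlap.

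Vmn1r193 (ENSMUSG00000046932), near the other end of the chromosome 13 cluster (22213672 to 22223160, minus strand), was at 2.74, 3.31 and 2.50 CPM after control and at 7.12, 12.2 and 6.66 CPM after pup exposure. The control libraries were close together and all pup libraries lay above them, a fold of 3.04 between means. The log2 fold change was 1.60 (SE 0.54), with an edgeR adjusted p of 0.424. Of its coding words 15.6% occur in other transcripts, and its closest relative, Vmn1r204 at 87.7% identity, had 9, 12 and 29 counts after control and 56, 0 and 2 after pup exposure. Vmn1r204 thus had a single high library in the pup group and overlapping groups, with a log2 fold change of -1.01 (SE 1.52), which was 0.15 without control exposure replicate 3. It was -5.29 when pup exposure replicate 1 was omitted, where the edgeR unadjusted p was under 0.05. Counts of Vmn1r193 per count of Vmn1r204 were 3.89, 3.08 and 0.552 after control. In pup exposure replicates 1 and 3 they were 2.375 and 67.5, so the groups overlapped.

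Vmn1r236 (ENSMUSG00000054142, chromosome 17 from 21282942 to 21294007, plus strand) was the receptor of the 4 whose coding sequence shares no 50-base word with another transcript. Of the words of its longest transcript, untranslated parts included, 0.784% occur in transcripts of other genes. Vmn1r236 was at 0.861, 1.88 and 2.50 CPM after control and at 3.10, 7.04 and 7.90 CPM after pup exposure, and the groups did not overlap. The fold between means was 3.44 and the log2 fold change 1.80 (SE 0.70), with an edgeR adjusted p of 0.424. Its closest relative, Vmn1r233 at 74.8% identity, was at 1.64, 2.77 and 5.77 CPM after control and 0.696, 4.53 and 2.42 CPM after pup exposure. Counts of Vmn1r236 per count of Vmn1r233 were 0.524, 0.677 and 0.432 after control and 4.46, 1.55 and 3.27 after pup exposure, which separated the groups in a pair also picked after the values were seen.

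Vmn1r197 (ENSMUSG00000069294, chromosome 13 from 22324589 to 22332866, plus strand) had the opposite pattern, at 11.1, 11.8 and 14.2 CPM after control and 3.69, 7.74 and 5.73 CPM after pup exposure. Its pup libraries all lay below its control libraries, with means of 12.4 ± 1.62 and 5.72 ± 2.02 CPM (SD, n = 3 each). By edgeR's quasi-likelihood test its log2 fold change was -1.11 (SE 0.46), with an adjusted p of 0.446. Among all V1R counts its share was 1.66% ± 0.220 after control and 0.585% ± 0.102 after pup exposure (SD, n = 3 each). With libraries scaled to their V1R counts the log2 fold change was -1.50, and with library totals only it was -0.74.

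Vmn1r198, the next receptor on the same strand, was at 10.9, 12.6 and 16.4 CPM after control and 9.69, 19.2 and 21.7 CPM after pup exposure, with overlapping groups and a log2 fold change of 0.35 (SE 0.44), which was -0.022 when libraries were scaled to their V1R counts. Counts of Vmn1r197 per count of Vmn1r198 were 1.02, 0.936 and 0.867 after control and 0.381, 0.403 and 0.264 after pup exposure. This ratio was similar within each group and did not overlap between groups; the pair was picked after the values were seen. Vmn1r211, which shares the first 104 coding bases with Vmn1r197, was at 2.58, 1.88 and 1.72 CPM after control and 0.161, 4.53 and 2.07 CPM after pup exposure, with a log2 fold change of 0.13 (SE 1.02). Counts of Vmn1r197 per count of Vmn1r211, its closest relative, were 4.30, 6.29 and 8.27 after control and 23, 1.71 and 2.76 after pup exposure. In this pair the pup libraries lay on both sides of the control libraries.

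Vmn1r231, on chromosome 17, was the other receptor whose pup libraries all lay below the control libraries, though by little. It was at 8.14, 6.44 and 6.55 CPM after control and 6.10, 5.13 and 6.32 CPM after pup exposure. The log2 fold change was -0.27 (SE 0.48), with an edgeR adjusted p of 0.850. Its coding sequence shares no word with other genes, but 13.3% of the words of its longest transcript occur in Gm49761. Words were looked up on either strand, and reads from such shared stretches cannot be assigned with certainty.

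Vmn1r226 (ENSMUSG00000042848), highest per kilobase of coding sequence, was at 7.43, 17.3 and 28.9 CPM after control and 22.8, 32.7 and 28.6 CPM after pup exposure. Its control libraries spread widely and overlapped the pup libraries. The log2 fold change was 0.66 (SE 0.48), which ran from 0.29 without control exposure replicate 1 to 1.15 without control exposure replicate 3, where the edgeR unadjusted p was under 0.05. As a share of V1R counts it held 2.31% ± 1.29 after control and 2.93% ± 0.138 after pup exposure (SD, n = 3 each). Vmn1r225, whose stretch is printed beside that of Vmn1r226, had 14, 67 and 16 counts after control and 17, 80 and 56 after pup exposure, a log2 fold change of -0.56 (SE 0.85).

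Vmn1r232 was at 17.7, 10.2 and 12.8 CPM after control and 9.64, 24.1 and 24.1 CPM after pup exposure, with a log2 fold change of 0.51 (SE 0.46). Its closest relative, Vmn1r228 at 78.4% identity, was at 1.72, 11.5 and 17.5 CPM and then 10.1, 25.3 and 13.6 CPM, with a log2 fold change of 0.69 (SE 0.68), which ran from 0.18 without control exposure replicate 1 to 1.28 without control exposure replicate 3. Both receptors had overlapping groups. For Vmn1r224, at 1.72, 6.53 and 20.6 CPM after control and 7.39, 13.9 and 12.3 CPM after pup exposure, the log2 fold change was 0.24 (SE 0.70), which was -0.25 with control exposure replicate 1 omitted, 1.42 with control exposure replicate 3 omitted and -0.077 with libraries scaled to their V1R counts. Vmn1r226, Vmn1r228 and Vmn1r224 each had their lowest control value in control exposure replicate 1 and their highest in control exposure replicate 3.

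Vmn1r199 and Vmn1r214, 92.0% identical, differed in the libraries that were high. For Vmn1r199, 3.03% of the coding words but 15.3% of the words of the longest transcript occur in other genes, most often in Vmn1r-ps102 (14.8%). Vmn1r199 had 2, 62 and 4 counts after control and 174, 170 and 93 after pup exposure, with control exposure replicate 2 inside the range of the pup libraries in CPM. Its log2 fold change was 1.63 (SE 0.98), with an edgeR adjusted p of 0.539, and ran from 1.07 to 4.20 when single libraries were left out, the latter without control exposure replicate 2. The unadjusted p was under 0.05 in that fit, without the filter, with the replicate block and in limma-voom, and the adjusted p was 0.384 to 0.831 over 16 settings. Vmn1r214 had 43, 134 and 78 counts after control and 317, 150 and 151 after pup exposure, with overlapping CPM. Its log2 fold change of 0.12 (SE 0.60) turned negative without replicate 1 of the control group (-0.29) or of the pup group (-0.52), and with libraries scaled to their V1R counts (-0.045). Counts of Vmn1r199 per count of Vmn1r214 were 0.0465, 0.463 and 0.0513 after control and 0.549, 1.13 and 0.616 after pup exposure. The highest control ratio was just below the lowest pup ratio, in a further pair picked after the values were seen.

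Further receptors had groups that overlapped in CPM. Vmn1r230 was at 1.49, 3.40 and 1.25 CPM after control and 0.321, 10.6 and 6.76 CPM after pup exposure, so its pup libraries lay on both sides of the control libraries (log2 fold change 1.52, SE 0.97). Its edgeR unadjusted p was under 0.05 without the filter and without pup exposure replicate 1. Vmn1r191 was at 0.861, 2.42 and 2.96 CPM after control and 0, 0.389 and 1.88 CPM after pup exposure (log2 fold change -1.45, SE 1.32). Vmn1r213 had 8, 24 and 9 counts and then 2, 19 and 30 (log2 fold change -0.88, SE 1.15). Vmn1r210 ran from 2.77 to 3.52 CPM after control and from 2.57 to 6.40 CPM after pup exposure. Vmn1r235 ran from 4.84 to 8.50 CPM after control and was close together after pup exposure, from 5.48 to 6.21 CPM.

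The 6 receptors with counts that did not pass the filter included Vmn1r194, the gene of the chromosome 13 cluster with no coding word in another transcript. It had 0, 4 and 0 counts after control and 43, 31 and 13 after pup exposure, with no overlap in counts; in CPM the groups were 0, 0.358 and 0, and 2.30, 1.10 and 0.642. Without the filter, edgeR gave Vmn1r194 a log2 fold change of 3.35 (SE 1.70) with an adjusted p of 0.494. DESeq2 gave 3.40 (SE 1.56) and no adjusted p; in both fits the unadjusted p was under 0.05. In edgeR fits with 1 library left out that kept the gene, it was under that limit without control exposure replicate 2 but not without control exposure replicate 1, control exposure replicate 3 or pup exposure replicate 3. Vmn1r212 had 30, 5 and 0 counts after control and 0, 29 and 4 after pup exposure, and Vmn1r201 had 26, 0 and 0 and then 2, 0 and 5. Both had most of their counts in 1 or 2 libraries. Vmn1r195 had 8, 4 and 0 counts and then 0, 20 and 10, and Vmn1r203 had 0 in all control libraries and 0, 11 and 7 after pup exposure. Together with Vmn1r222, these were the receptors with counts that the filter removed.

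The receptors were read beside the signalling genes of V1R neurons and the markers of other cells. Of 25 listed signalling genes 24 were matched and 23 tested, with 17 positive and 6 negative log2 fold changes and a median of 0.35; edgeR called 0 after adjustment, and 51.5% of all genes were positive. At an unadjusted p under 0.05, 4 were higher after pup exposure and 1 lower, where 6.31% and 4.67% of all genes were. The 4 were Gng2, a G protein gamma subunit (log2 fold change 1.05), Ano2, a calcium-activated chloride channel (1.07), Grk3, a receptor kinase (1.16), and Slc8a1, a sodium-calcium exchanger (2.95). Slc8a1 was at only 0.391, 0.448 and 0.312 CPM after control and at 4.34, 2.97 and 1.83 CPM after pup exposure. It passed the filter through its pup libraries, where it was higher. Kcnn3, a calcium-activated potassium channel, was the lower one, at 26.0, 65.8 and 15.6 CPM after control and 0.696, 2.23 and 7.50 CPM after pup exposure. Its log2 fold change was -3.37 (SE 0.80), with an adjusted p of 0.375 in edgeR and 0.00109 in DESeq2, and over 16 settings from 4.23e-07 to 0.831. Gnai2, the G protein subunit of V1R neurons, was at 165 ± 33.5 CPM after control and 266 ± 144 CPM after pup exposure, and Gnao1, that of V2R neurons, at 57.9 ± 18.3 and 86.2 ± 24.4 CPM (SD, n = 3 each). Both had overlapping groups.

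Summed levels of some marker lists separated the groups and others overlapped. The summed level of 6 markers of sustentacular cells, the supporting cells of the epithelium, was 3640 to 4319 CPM after control and 1427 to 2165 CPM after pup exposure, that of 5 immature neuron markers 699 to 732 and 461 to 553 CPM, and that of 5 red cell markers 205 to 590 and 52.5 to 167 CPM. The 4 markers of apical neurons summed to 335 to 426 CPM after control and 361 to 687 CPM after pup exposure, with overlap. The 6 markers of main olfactory neurons summed to 135 to 244 and 168 to 455 CPM, also with overlap. The 10 matched markers of vomeronasal sensory neurons summed to 2033 to 2217 CPM after control and 2259 to 2683 CPM after pup exposure, and 4 glial markers to 85.1 to 91.3 and 91.9 to 103.7 CPM, both without overlap. Single markers did not all follow their sums. Of the 5 immature neuron markers 4 log2 fold changes were negative and 1, that of Dcx, positive. Gng8, Dcx and Tubb3 each had overlapping groups. Of the 4 glial markers 2 were positive and 2 negative. Among the 10 vomeronasal neuron markers, 6 log2 fold changes were positive and 4 negative. Gnb1 and Omp held most of their sum. From control to pup exposure the mean of Gnb1 went from 541 to 909 CPM and that of Omp from 864 to 758 CPM. Nasal gland markers, the most abundant, summed to 206503 to 720705 CPM after control and 157590 to 377873 CPM after pup exposure, with overlap, as did those of basal neurons, endothelium and macrophages. Every matched marker of these lists had counts. Whether these shifts take part in the values of Vmn1r221, Vmn1r193, Vmn1r219, Vmn1r236 or Vmn1r197 was not tested. The shares among V1R counts and the count ratios between receptors given above use counts of V1R genes only.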

How the data were processed

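The authors deposited raw counts of reads for each Ensembl gene in each library. Per the submitters' processing notes the build is GRCm38; aligner, counting tool, strand setting and annotation release: not given in the sources used here. Per the labels' protocols, cDNA was made with a low-input kit and sheared before sequencing. GENCODE M21 named 36723 of 38561 IDs. The counts were tested with edgeR 4.0.16 in R 4.3.3 (glmQLFit and glmQLFTest, intercept and group): filterByExpr (minimum count 10, minimum total 15) kept 15498 genes, libraries were scaled by TMM (factors 0.605 to 1.39), and p-values were adjusted by Benjamini-Hochberg over all of them at a threshold of 0.05, with a common biological coefficient of variation of 0.535. SEs were derived from the F statistic. Alternatives were scaling by RLE, by upper quartile or by library totals only, omitting the filter or using a stricter one (1 CPM in 3 libraries and 50 counts), DESeq2 1.42.0, limma-voom (limma 3.58.1), a replicate block, and omitting each library in turn; thinning every library to 10590716 counts and scaling to V1R counts were added after seeing the data. Within groups every pair of libraries differed by more than sampling noise (chi-square of 86.2 to 299.7 per degree of freedom). The scripts were tested on simulated data. Identity comes from global alignment of GENCODE M21 coding sequences.

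The receptors and gene lists were chosen with earlier results of these data known. Named by rule were the receptors with the 6 highest levels per kilobase on each scale, the 5 with the smallest p in each direction, those with groups that do not overlap, their closest relatives in coding sequence or shared words (in place of protein likeness), signalling genes at an unadjusted p under 0.05, and Omp, Gnai2, Gnao1 and Meis2; Vmn1r210, Vmn1r220, Vmn1r222, Vmn1r230, Vmn1r235 and the untested receptors were described after their values were seen. Of the listed genes, Trpc2 and Lcn14 were not matched to a row, and Trpc6 was at 0. Family symbols without a row in the table, such as Vmn1r189, were not analysed here.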

Additional observations from a re-analysis of the deposited data

How the results depend on the processing

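Vmn1r221 stayed at an unadjusted p under 0.05 with a positive log2 fold change in the main edgeR fit and in all 16 alternatives. Against 0 genes called in the main fit, 120 were called without the filter, 127 by DESeq2, 8 by limma-voom and 7 with libraries scaled to V1R counts. Receptors higher at an unadjusted p under 0.05 (4 in the main fit) were 7 without the filter, where 37 were tested, and 2 with libraries scaled to V1R counts, and 1 to 5 when single libraries were left out. Receptors lower (1) were 0 with library totals only, 0 without the filter, and 0 to 1 when single libraries were left out. The median log2 fold change (0.24) was 0.70 with library totals only, where that of all genes was 0.31, and -0.045 with libraries scaled to V1R counts, where that of all genes was -0.30; leaving out single libraries gave 0.11 to 0.67. The share of V1R counts held by the receptors was 0.931 percentage points higher after pup exposure, with a range of -0.661 to 2.84 when single libraries were left out, turning negative without control exposure replicate 1 (-0.661) or pup exposure replicate 3 (-0.101). Among genes, Omp turned to 0.037 with library totals only, Meis2 to -0.18, Vmn1r198 to -0.022, Vmn1r214 to -0.045 and Vmn1r224 to -0.077 with libraries scaled to V1R counts. When single libraries were left out, Vmn1r214 ran from -0.52 to 0.45 (-0.29 without control exposure replicate 1), Vmn1r224 from -0.25 to 1.42 and Vmn1r204 from -5.29 to 0.15. The causes were not tested.

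The labels state no pairing of libraries by replicate number. Deviations of same-numbered libraries from their group means correlated at -0.035, 0.179 and 0.075. The value of 0.179, for replicate 2, was the highest of any control and pup library, but not every library correlated best with its own number. With 3 libraries per group this check cannot decide whether libraries were paired. With the replicate number as a block, edgeR called 0 genes, and the receptors' median log2 fold change was 0.28. The untested receptors had at most 43 counts in a library, and the part that depth plays in this was not tested.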
